A study of Mus musculus with 24 samples.

Results

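The genes described here are 7 genes of mouse chromosome 2 whose products work at synapses or in the membrane of neurons: Napb, Snph, Rims4, Dlgap4, Slc12a5, Slc24a3 and Cdh22. They were taken by name, with every exon row and every probe annotated to them, out of 341 genes on a custom NimbleGen array. Of the array's 3919 exon rows, 143 belonged to these genes. Of the 13388 probes in the authors' value table, 440 did. Rows with identical coordinates were averaged, which left 100 exon features of 3099 in all. All 7 genes and all 100 features entered the tests, since no filter on dim signal was applied.

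All lie on chromosome 2, in coordinates of a build that the sources used here do not name. From the lower end upward, Slc24a3 spans 145200482 to 145393916 on the plus strand (16 exon features, 66 probes) and Napb 148447215 to 148484979 on the minus strand (15 features, 45 probes). Snph follows at 151653898 to 151695922, minus strand (8 features, 36 probes), and Dlgap4 at 156764027 to 156827710, plus strand (14 features, 68 probes). Rims4 spans 163927229 to 163982032 on the minus strand (6 features, 18 probes). Slc12a5, at 165031366 to 165062840 on the plus strand (29 features, 171 probes), and Cdh22, at 165174621 to 165297832 on the minus strand (12 features, 36 probes), lie closest to each other.

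RNA was measured in congenic mice and in B6 mice, in whole brain, liver, the epididymal fat pad and the gastrocnemius, a calf muscle. Each genotype had 3 samples in each tissue, or 24 in all. B6.S-2 is a congenic strain, a B6 mouse into which part of chromosome 2 of Mus spretus was bred, and the labels do not give the ends of that part. B6 denotes the background strain without it. The titles alone tell the genotypes apart, because the treatment field calls every sample congenic. The growth protocol speaks of F2 mice, of chow, and of a purified diet rich in fat for 1 group of males, without naming the samples. The age of the mice is not given in the sources used here.

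Neurons release transmitter when vesicles dock at an active zone and fuse with the membrane through SNARE proteins, which must then be pulled apart before they can work again. Napb encodes beta-SNAP, the brain form of the adaptor that brings the ATPase NSF to spent SNARE complexes. Snph encodes syntaphilin, which anchors mitochondria to microtubules in axons and binds the SNARE protein syntaxin. Rims4 encodes a short member of the RIM family of active zone proteins, and Dlgap4 a scaffold protein that binds PSD-95 on the receiving side of excitatory synapses. Slc12a5 encodes KCC2, the neuronal potassium-chloride cotransporter that keeps chloride low and so lets GABA inhibit mature neurons. Slc24a3 encodes the sodium, calcium and potassium exchanger NCKX3, and Cdh22 a type II cadherin of brain.

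The array's own sequences were not used here. To show what lies at the start of the genes that were highest in brain, their promoter windows are printed from RefSeq (GRCm38.p6), from 250 bases before to 50 bases after a transcript start. RefSeq held 8 windows for 6 of the 7 genes. Napb, Snph and Slc12a5 are shown because their levels moved together over the samples, and Slc12a5 has 2 windows. Capitals mark matches to the GC box GGGCGG, which stands here as its reverse complement.
Napb, chr2:148732371-148732670, minus strand: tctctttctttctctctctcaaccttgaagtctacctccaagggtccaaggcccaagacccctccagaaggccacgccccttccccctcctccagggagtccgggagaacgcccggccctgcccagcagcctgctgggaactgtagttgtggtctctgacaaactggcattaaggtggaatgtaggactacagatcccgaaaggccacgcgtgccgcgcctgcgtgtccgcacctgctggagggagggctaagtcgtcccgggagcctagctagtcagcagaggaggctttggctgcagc
Snph, chr2:151632544-151632843, minus strand: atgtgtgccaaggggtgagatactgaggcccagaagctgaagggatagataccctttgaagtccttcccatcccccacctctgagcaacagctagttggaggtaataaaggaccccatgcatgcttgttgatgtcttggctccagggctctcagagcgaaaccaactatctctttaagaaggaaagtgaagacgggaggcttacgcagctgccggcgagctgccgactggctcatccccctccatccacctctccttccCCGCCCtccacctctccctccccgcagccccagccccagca
Slc12a5, chr2:164960596-164960895, plus strand: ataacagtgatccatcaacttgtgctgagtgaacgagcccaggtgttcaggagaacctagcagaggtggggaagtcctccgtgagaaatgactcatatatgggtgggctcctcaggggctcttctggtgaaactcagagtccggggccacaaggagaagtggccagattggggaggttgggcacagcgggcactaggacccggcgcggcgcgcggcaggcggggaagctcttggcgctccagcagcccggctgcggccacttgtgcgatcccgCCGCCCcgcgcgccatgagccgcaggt
Slc12a5, chr2:164967738-164968037, plus strand: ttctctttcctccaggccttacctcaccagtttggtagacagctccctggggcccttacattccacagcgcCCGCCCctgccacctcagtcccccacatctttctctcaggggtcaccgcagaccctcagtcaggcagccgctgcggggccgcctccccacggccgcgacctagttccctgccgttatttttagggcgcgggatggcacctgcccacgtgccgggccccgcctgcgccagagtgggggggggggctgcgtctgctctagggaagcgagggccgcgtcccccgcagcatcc

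Both strands of each window were searched for 5 motifs, which do not overlap in the windows shown. The GC box stood at position 10 after the Snph start, at position 24 after the first Slc12a5 start and at position -179 before the second, each time on the other strand. The Napb window held none of the 5. Of all 32851 mouse windows of this length, 35.7% held a GC box. The TATA box TATAAA, in 13.6% of all windows, was in none of the 4 shown. The same was true of the cAMP response element TGACGTCA, in 1.79%, and of the RE1 pieces CAGCACC and GGACAGC, in 7.14% and 6.56%. GC content was 61.3% in the Napb window, 57.7% in the Snph window, and 63.7% and 68.3% in those of Slc12a5. These matches describe letters and bear on no binding.

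Values below are log2 intensities after background correction, quantile normalization over the 24 arrays and median polish over the exons of a gene. A difference in log2 intensity is given with its standard error from limma. A gene was called where limma's Benjamini-Hochberg adjusted p over all 341 genes was under 0.05, and an exon feature or probe likewise over all features or probes. The median raw intensity of an array lay between 232 and 3571. Slides and well rows are inferred here, from the image identifier and the first letter of an option field in the array headers. Brain and liver shared slide 1, and fat and muscle shared slide 2. A difference between slide 1 and slide 2 tissues therefore cannot be told apart from one between slides. In these bulk samples, fewer cells of a type and less RNA per cell cannot be told apart either. Marker lists of muscle and liver followed the labels: 3 muscle genes averaged 12.05 to 12.33 in muscle and 9.49 to 9.76 elsewhere, and 3 hepatocyte genes 11.16 to 11.74 in liver and 9.70 to 10.05 elsewhere. The fat samples also carried 6 epididymis and testis genes at 11.88 to 12.12, against 9.26 to 9.81 in the other tissues. The mean of 6 seminal vesicle genes reached 10.52 in congenic fat and 10.42 in congenic muscle, against at most 9.16 in B6 fat and 8.62 in B6 muscle. No list of adipocyte markers was used.

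Napb had the largest excess in brain of the 7 genes. Its level in brain ran from 9.77 through a median of 10.28 to 11.03 over 6 samples. In liver it ran from 8.58 through 8.66 to 8.84, in fat from 8.37 through 8.47 to 8.61, and in muscle from 8.74 through 8.89 to 8.99. No brain sample overlapped any sample of another tissue. Brain exceeded liver by 1.64 ± 0.09 in log2 intensity, or 3.13-fold (limma adjusted p = 2.10e-11), and this call held under every alternative processing and with each sample left out. The order of levels was brain, muscle, liver and fat. Muscle and liver were not separated by the test (liver minus muscle -0.21, limma adjusted p = 0.0800), nor were liver and fat (0.21, limma adjusted p = 0.0706), while fat was below muscle by 0.42 ± 0.09 (adipose minus muscle -0.42, limma adjusted p = 0.00125). That last difference turned to 0.34 (limma adjusted p = 0.0456) where dim exon features were left out, which kept 2 of the 15 features of Napb.

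**Figure D1:**
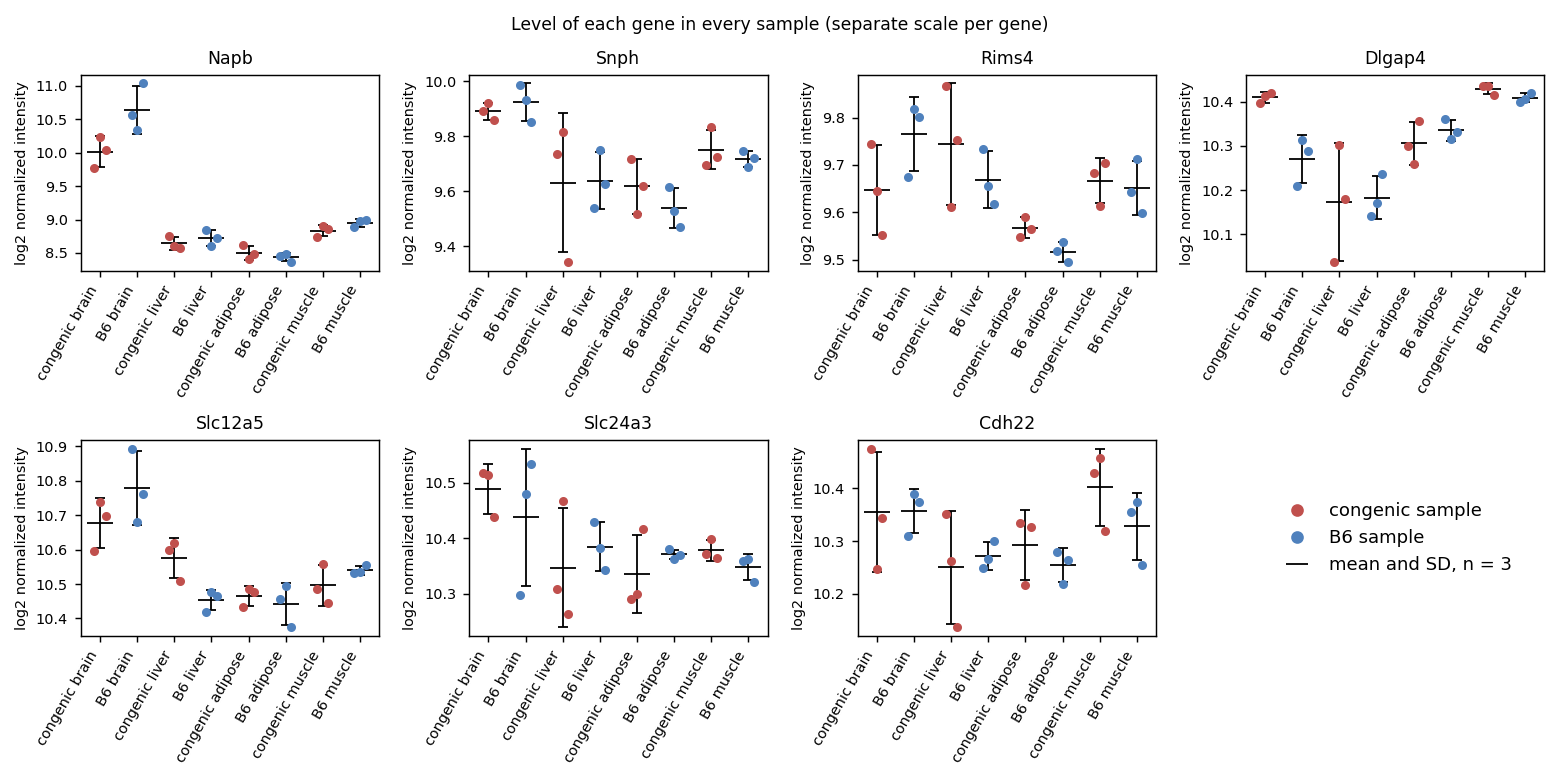
Log2 intensity of each of the 7 genes (1 panel per gene, vertical axis) in every sample of the 8 genotype and tissue groups (horizontal axis), with congenic samples left of B6 samples, points for samples and bars for group means with SD (n = 3). Napb lies between 9.77 and 11.03 in brain and between 8.37 and 8.99 in all other tissues, and the other 6 genes span much narrower ranges.

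In the brain against liver comparison, Napb, Snph, Slc12a5 and Dlgap4 were called higher and none of the 7 was called lower. Over all 341 genes, 17.3% were called higher in brain and 17.0% lower. With arrays scaled to a common median in place of quantiles, these shares rested on 36 genes higher and 74 lower, against 59 and 58. The median difference was 0.16 over the 7 genes and -0.01 over all genes. Against the mean of the other 3 tissues, Napb, Snph, Slc12a5 and Slc24a3 were called higher in brain, where 17.6% of all genes were called higher and 27.0% lower. Median scaling gave 52 genes higher and 134 lower there, against 60 and 92.

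Slc12a5 was also highest in brain. Its brain values ran from 10.60 through 10.72 to 10.89, its liver values from 10.42 through 10.49 to 10.62. Fat samples lay between 10.37 and 10.49 and muscle samples between 10.44 and 10.56. The 6 brain samples overlapped the liver samples at their lower end and lay wholly above fat and muscle. Brain exceeded liver by 0.21 ± 0.04 (limma adjusted p = 3.63e-04), fat by 0.27 ± 0.04 (limma adjusted p = 1.83e-05) and muscle by 0.21 ± 0.04 (limma adjusted p = 3.74e-04). The liver call was lost with median scaling (0.12, limma adjusted p = 0.0734). Of all genes, 18.5% were called higher in brain than in fat and 17.0% higher in brain than in muscle. Liver, muscle and fat were not separated from each other.

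Snph values in brain ran from 9.85 through 9.91 to 9.99. In liver they ran from 9.34 through 9.68 to 9.82, in fat from 9.47 through 9.57 to 9.72, and in muscle from 9.69 through 9.72 to 9.83. The brain samples lay just above all others. Brain exceeded liver by 0.27 ± 0.06 (limma adjusted p = 0.00248), fat by 0.33 ± 0.06 (limma adjusted p = 3.78e-04) and muscle by 0.17 ± 0.06 (limma adjusted p = 0.0385). The liver difference was 0.14 (limma adjusted p = 0.0970) in the authors' value table and 0.09 (limma adjusted p = 0.424) with dim exon features left out. Its excess over the mean of the other tissues, 0.26, fell short with dim features left out (0.03) and with well row as a block (0.16).

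Dlgap4 had its highest level in muscle and its lowest in liver. It ran from 10.21 through 10.36 to 10.42 in brain, from 10.04 through 10.17 to 10.30 in liver, from 10.26 through 10.32 to 10.36 in fat, and from 10.40 through 10.42 to 10.44 in muscle. Brain exceeded liver by 0.16 ± 0.04 (limma adjusted p = 0.00319), a call lost with median scaling (0.11) and with dim features left out (0.12). Liver was below muscle by 0.24 (liver minus muscle -0.24 ± 0.04, limma adjusted p = 6.44e-05) and below fat (liver minus adipose -0.14 ± 0.04, limma adjusted p = 0.00663). Of all genes, 40.8% were called between liver and muscle in either direction, and 22.6% were called lower in liver than in fat. Brain did not separate from fat (0.02, limma adjusted p = 0.735) or from muscle (-0.08, limma adjusted p = 0.116).

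Rims4 was not separated between brain and liver by the test, with a difference of -0.0008 ± 0.05 (limma adjusted p = 0.991). Its samples lay between 9.55 and 9.82 in brain, 9.61 and 9.87 in liver, 9.50 and 9.59 in fat and 9.60 and 9.71 in muscle. Fat stood lowest. Brain exceeded fat by 0.16 ± 0.05 (limma adjusted p = 0.00789) and liver exceeded fat by the same amount (limma adjusted p = 0.00663, where 20.2% of all genes were called higher in liver). Adipose minus muscle was -0.12 ± 0.05 (limma adjusted p = 0.0535).

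Slc24a3 and Cdh22 varied least over the tissues. Slc24a3 ran from 10.30 to 10.53 in brain and from 10.26 to 10.47 over the other 3 tissues. Its excess in brain over the mean of the other tissues was 0.10 ± 0.04 (limma adjusted p = 0.0257), and no pair of tissues passed. That call was lost with median scaling (0.03), with dim features left out (0.05), with well row as a block (0.07), and without congenic brain replicate 1 or 2 or B6 brain replicate 2 or 3. Cdh22 ran from 10.25 to 10.48 in brain and from 10.14 to 10.46 over the other tissues, and brain minus liver was 0.10 ± 0.05 (limma adjusted p = 0.125). Between fat and muscle, Napb was the 1 gene of the 7 called, where 20.2% of all genes were called lower and 15.8% higher. Rims4, Dlgap4 (limma adjusted p = 0.0599) and Snph (limma adjusted p = 0.0648) fell just short.

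Single exons of these genes separated brain from liver far more widely than the gene levels did. Of the 100 features, 37 were called higher in brain and 7 lower, against 14.7% and 13.0% of all 3099. The called features were 11 higher of 15 in Napb, 3 higher of 8 in Snph, 13 higher and 4 lower of 29 in Slc12a5, 4 higher and 2 lower of 16 in Slc24a3, 4 higher of 12 in Cdh22, 2 higher of 14 in Dlgap4, and 1 lower of 6 in Rims4. The largest differences of Snph, Slc12a5 and Slc24a3 sat at the 3′ end. The largest of Napb did too (2.81), but its 4th and 6th features from the 5′ end came close (2.53 and 2.72). Coordinates are on chromosome 2 in the files' own build.

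The 3′-most feature of Slc12a5, at 165061781 to 165062840, read 12.80, 13.15 and 13.29 in congenic brain and 12.96, 11.88 and 12.59 in B6 brain. In liver it read 9.22, 9.07 and 9.30 in congenic mice and 8.55, 9.10 and 8.31 in B6 mice. The tissues did not overlap, and the difference of 3.85 ± 0.16 compared with a median of 0.30 over the other features of the gene. Because median polish follows the majority of exons, this excess enters the level of the gene only weakly.

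Snph behaved alike at 151653898 to 151657948, with 10.40, 11.14 and 11.02 in congenic brain and 10.32, 9.58 and 10.62 in B6 brain. The liver values were 7.63, 8.15 and 7.59 in congenic mice and 8.06, 6.55 and 7.15 in B6 mice. This is a difference of 2.99 ± 0.21, against a median of 0.21 over its other features. In Slc24a3 the last feature, 145392193 to 145393916, read 10.21, 10.40 and 10.50 in congenic brain and 9.98, 9.81 and 10.46 in B6 brain. Its liver values were 7.48, 7.93 and 7.34 in congenic mice and 8.12, 8.26 and 7.94 in B6 mice, so brain was higher by 2.38 ± 0.12 where the other features had a median of 0.02.

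Napb combined both patterns. Its last feature, 148447215 to 148450065, read 10.99, 12.19 and 11.26 in congenic brain and 12.19, 11.24 and 12.16 in B6 brain, against 8.92, 8.56 and 9.04 in congenic liver and 8.48, 9.02 and 9.13 in B6 liver. The difference was 2.81 ± 0.19, and the other features still had a median of 1.56. The last feature was the highest in Cdh22 too, at 0.36 ± 0.09 with a median of 0.10 over the others. It ranked 4 of 14 in Dlgap4 (0.23) and 3 of 6 in Rims4 (0.05). The 3′-most feature thus had the highest brain minus liver difference in 5 of 7 genes (71.4%), and in 60 of the 274 other genes with at least 3 features (21.9%), which is a description with no test. The lead was within the standard error in Cdh22, whose 10th of 12 features had 0.34 ± 0.10. It was likewise small in Napb, whose 6th feature had 2.72 ± 0.16.

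**Figure D2:**
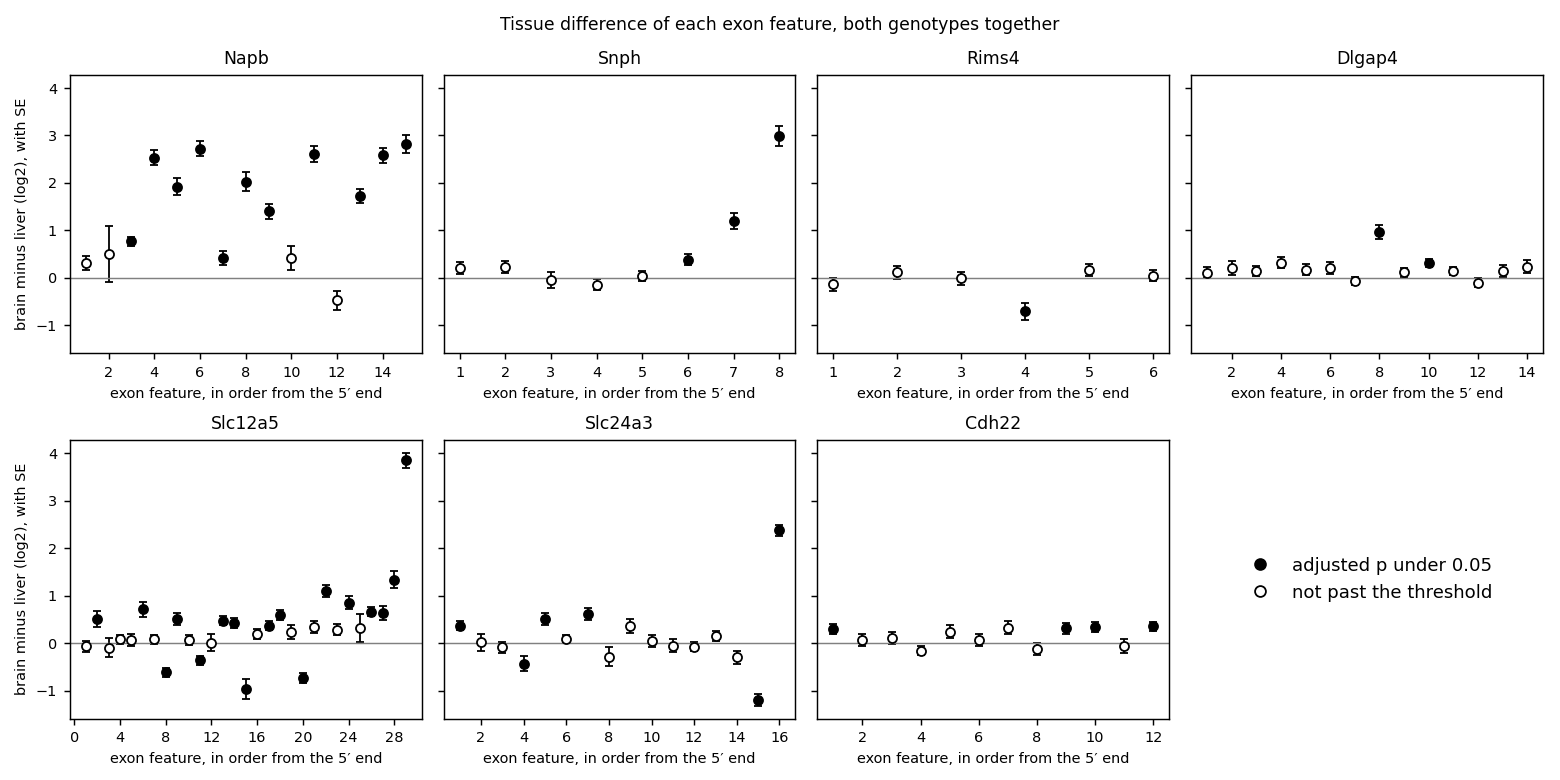
Brain minus liver difference in log2 intensity (vertical axis) of every exon feature of the 7 genes, in order from the 5′ end to the 3′ end of each gene (horizontal axis), with bars for the standard error of the limma fit. The differences of Slc12a5, Snph and Slc24a3 reach 3.85, 2.99 and 2.38 at their last feature, where their other features have medians of 0.30, 0.21 and 0.02. Features of Slc12a5 and Slc24a3 also fall as low as -0.97 and -1.20. In Napb 14 of 15 features lie above 0.

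Exons that went the other way were few. In Slc24a3 the feature 145387351 to 145387417 read 12.76, 12.71 and 12.87 in congenic brain and 12.53, 12.43 and 12.69 in B6 brain, against 13.99, 13.78 and 13.34 in congenic liver and 13.89, 13.90 and 14.30 in B6 liver. Every liver sample was above every brain sample, and the difference was -1.20 ± 0.12 (limma adjusted p = 8.26e-08 over all features). In Rims4 the feature 163928801 to 163928903 was lower in brain (-0.71, limma adjusted p = 0.00355). Slc12a5 held 4 features called lower in brain, with differences from -0.97 to -0.37. The largest Dlgap4 difference lay at 156809183 to 156809545, away from the 3′ end, at 0.97 ± 0.15 (limma adjusted p = 3.15e-05). That feature read 8.72, 9.14 and 8.92 in congenic brain and 8.75, 8.08 and 8.99 in B6 brain, against 7.50, 7.72 and 8.02 in congenic liver and 8.11, 7.53 and 7.92 in B6 liver. All but 1 of the brain samples lay above all liver samples.

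The 3′ ends stayed low in fat and muscle as well. In Slc12a5 the last feature lay between 8.67 and 9.23 in the 6 fat samples and between 8.88 and 9.24 in the 6 muscle samples. In Snph it lay between 7.95 and 8.62 in fat and between 8.25 and 8.69 in muscle, and in Slc24a3 between 8.35 and 8.69 in fat and between 8.17 and 8.40 in muscle. All brain samples of these 3 features were above these ranges. Brain exceeded the mean of the other tissues by 3.80 ± 0.13 for Slc12a5 (limma adjusted p = 3.30e-15), 2.40 ± 0.17 for Snph (limma adjusted p = 2.48e-10) and 2.01 ± 0.09 for Slc24a3 (limma adjusted p = 4.55e-13). In that comparison 44 of the 100 features were called higher in brain and 4 lower, against 17.7% and 19.2% of all features. Napb accounted for 14 of the 44 and Slc12a5 for 15.

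Between fat and muscle, 2 of the 100 features were called higher in fat and 22 lower, against 12.5% and 16.1% of all features. The lower ones were 7 each in Napb and Slc12a5, 3 each in Dlgap4 and Cdh22, and 1 each in Snph and Slc24a3, with 0 in Rims4. The largest in Napb, 148459504 to 148459582, read 8.07, 7.86 and 7.69 in congenic fat and 7.89, 7.89 and 7.62 in B6 fat, against 8.46, 9.13 and 9.01 in congenic muscle and 9.06, 8.79 and 8.74 in B6 muscle. The tissues did not overlap (-1.02 ± 0.18, limma adjusted p = 1.56e-04). A single Slc24a3 exon, 145356400 to 145356561, was lower in fat by 0.90 ± 0.15 (adipose minus muscle -0.90, limma adjusted p = 6.90e-05), although the level of that gene did not separate these tissues. It read 11.28, 11.15 and 11.51 in congenic fat and 11.44, 11.50 and 11.50 in B6 fat, against 12.25, 12.72 and 12.37 in congenic muscle and 12.20, 12.11 and 12.09 in B6 muscle.

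Cdh22 showed the same kind of split between exon and gene. Its feature 165233735 to 165234030 read 10.39, 10.07 and 10.30 in congenic fat and 10.24, 9.95 and 10.28 in B6 fat, against 11.29, 10.73 and 11.16 in congenic muscle and 11.25, 11.21 and 10.95 in B6 muscle. Fat was lower without overlap (-0.89 ± 0.12, limma adjusted p = 7.65e-06). At the level of the gene, adipose minus muscle was -0.09 ± 0.05 for Cdh22 (limma adjusted p = 0.128).

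The comparison of genotypes asked which genes of the region differ between congenic and B6 mice, in each tissue. In brain, Napb read 9.77, 10.23 and 10.04 in congenic mice and 10.56, 10.33 and 11.03 in B6 mice. Every congenic sample was below every B6 sample. The means were 10.01 ± 0.23 in congenic brain and 10.64 ± 0.36 in B6 brain (SD, n = 3 each). The difference was -0.63 ± 0.13 in log2 intensity (95% interval -0.90 to -0.36), or 1.55-fold lower in congenic brain (limma adjusted p = 0.0237). This standard error and interval rest on the spread within all 8 groups, and Napb varied less outside brain, with group SDs of 0.06 to 0.12. Fitted on the brain samples alone, the difference was not called. Of the 7 genes, 1 was called lower in congenic brain and 0 higher, against 0.880% of all genes called lower and 0 higher. By unadjusted p under 0.05, 2 of the 7 passed, against 37 of all 341 genes.

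The Napb call in brain was lost in 5 of 13 alternatives, whose values ran from -0.79 to -0.36 with limma adjusted p from 0.0193 to 0.355. It was also lost without congenic brain replicate 1 or 3, B6 brain replicate 1 or 3, congenic adipose replicate 3, any of the 3 B6 adipose samples, or B6 muscle replicate 2 or 3, and the difference then lay between -0.65 and -0.39. The sign did not turn in any of these. The congenic brain arrays sat in well rows C, A and A of the slide and the B6 arrays in rows C, C and B. Within row C, 1 congenic sample at 9.77 stood below 2 B6 samples at 10.56 and 10.33, and with well row as a block the difference was -0.77 (limma adjusted p = 0.0376). The 2 glial marker genes Cst3 and Nkx2-2 averaged 11.41 to 11.71 in congenic brain and 11.51 to 11.93 in B6 brain, which overlap. A list of 3 immune genes (B2m, Cd40 and Samhd1) averaged 9.42 to 9.55 in congenic brain and 9.18 to 9.41 in B6 brain, and the 6 epididymis and testis genes 9.47 to 9.53 in congenic brain and 9.40 to 9.44 in B6 brain. These 2 lists did not overlap between the genotypes, and their part in the Napb difference was not tested. The endothelial, hepatocyte, seminal vesicle and muscle lists overlapped.

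Napb was not called between genotypes in the other tissues. Its signal was dim there. The median raw intensity of its exon rows was 0.41 to 0.74 of the array median, against 0.93 to 1.38 in brain. Whether a genotype difference could show at that level was not tested. It read 8.75, 8.60 and 8.58 in congenic liver and 8.84, 8.61 and 8.72 in B6 liver, with a difference of -0.08 ± 0.13. In fat it read 8.61, 8.41 and 8.48 in congenic mice and 8.46, 8.49 and 8.37 in B6 mice, a difference of 0.06 ± 0.13. In muscle it read 8.74, 8.90 and 8.86 in congenic mice and 8.88, 8.97 and 8.99 in B6 mice, a difference of -0.12 ± 0.13. The groups overlapped in each of these tissues. The muscle difference was -0.69 (limma adjusted p = 0.117) with dim features left out, which kept 2 of the 15 Napb features. The liver difference was -0.36 (limma adjusted p = 0.106) with median scaling, -0.22 with well row as a block and -0.19 with the mean of exon features. Neither was called under any alternative. The mean over tissues was -0.19 ± 0.07 (limma adjusted p = 0.154). The test of whether the genotype difference varied with tissue gave F = 5.35 with an unadjusted p of 0.00747 from limma and an adjusted p of 0.255, so a difference between brain and the other tissues was not called.

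**Figure D3:**
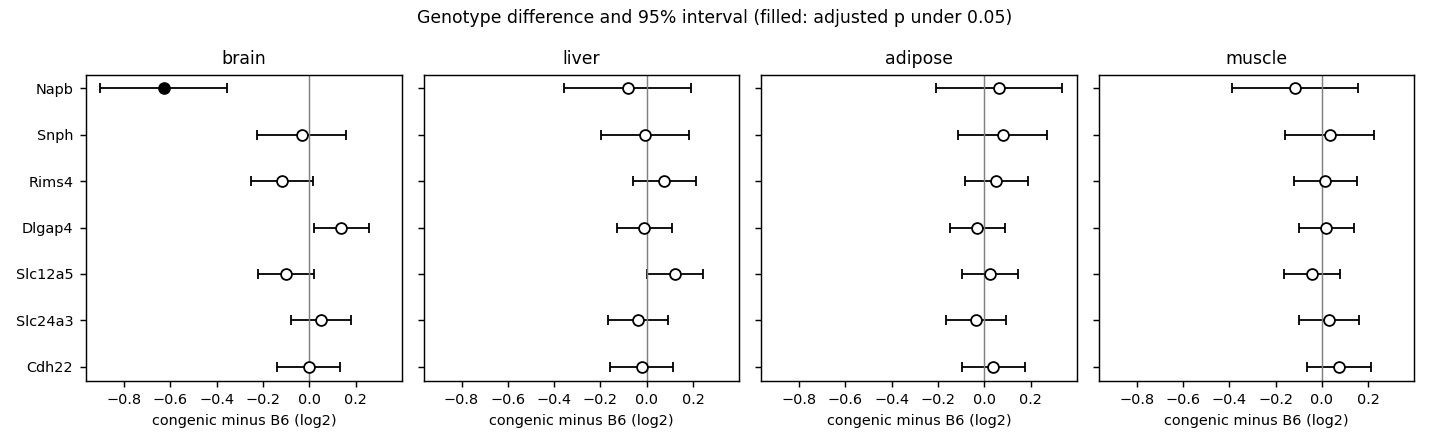
Congenic minus B6 difference in log2 intensity (horizontal axis) of the 7 genes (vertical axis) in brain, liver, fat and muscle, with bars for the 95% interval of the limma fit. The brain difference of Napb, at -0.63, is the farthest from 0, and every other difference lies between -0.12 and 0.14.

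The other 6 genes were not called in any genotype comparison. Dlgap4 read 10.40, 10.41 and 10.42 in congenic brain and 10.21, 10.31 and 10.29 in B6 brain. These values did not overlap, yet the difference of 0.14 ± 0.06 (95% interval 0.02 to 0.26) did not pass over all genes (limma adjusted p = 0.425). Rims4 read 9.74, 9.64 and 9.55 in congenic brain and 9.67, 9.82 and 9.80 in B6 brain, which overlap (-0.12 ± 0.06, limma adjusted p = 0.554). Slc12a5 read 10.60, 10.74 and 10.70 in congenic brain and 10.89, 10.68 and 10.76 in B6 brain, which overlap as well (-0.10 ± 0.06, limma adjusted p = 0.589). Differences in brain were -0.03 ± 0.09 for Snph, 0.05 ± 0.06 for Slc24a3 and -0.0018 ± 0.07 for Cdh22.

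In liver Slc12a5 read 10.60, 10.62 and 10.51 in congenic mice and 10.42, 10.48 and 10.46 in B6 mice. The congenic samples lay above the B6 samples by 0.12 ± 0.06 (unadjusted p = 0.0488, limma adjusted p = 0.377). This was 1 of 7 genes with an unadjusted p under 0.05 in liver, against 45 of all 341 genes. By limma 0 of 7 were called in liver, where 0.587% of all genes were. In fat 0 of 7 were called (1.47% of all genes) and 0 passed unadjusted (27 of all 341). In muscle the same counts were 0 (0.587% of all genes) and 0 (17 of all 341). For the mean over tissues 0 of 7 were called (2.05% of all genes), with 1 unadjusted (51 of all 341). For the interaction 0 of 7 were called (0.293% of all genes), with 1 unadjusted (29 of all 341). The median brain difference was -0.03 over the 7 genes and 0.004 over all genes.

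The Napb difference in brain lay below 0 along most of the gene and was widest at a single feature near its 3′ end. The feature next to that one on the 5′ side read 0.13 in congenic minus B6 brain. The last feature of Napb, which contains the stretch of both, read -0.38. In brain 13 of its 15 features were below 0 in congenic minus B6, with a median of -0.54 and a range from -1.27 to 0.13. An unadjusted p under 0.05 was found for 8 of the 15, against 280 of all 3099 features. In muscle 10 of 15 were below 0 with a median of -0.05. In liver 12 were below 0 with a median of -0.11, and in fat 6 were below 0.

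The farthest was the feature 148447336 to 148447569, 234 bases long and the 14th of 15 from the 5′ end. It read 11.16, 11.66 and 11.47 in congenic brain and 12.72, 12.43 and 12.94 in B6 brain. Congenic brain was lower by 1.27 ± 0.22 with no overlap (congenic minus B6 -1.27, limma adjusted p = 0.00646 over all features). In muscle it read 9.10, 9.23 and 9.58 in congenic mice and 10.18, 10.40 and 10.63 in B6 mice, again without overlap (-1.10 ± 0.22, limma adjusted p = 0.0288). Liver values were 9.13, 9.52 and 9.52 in congenic mice and 9.58, 9.21 and 9.93 in B6 mice (-0.18). Fat values were 11.02, 11.17 and 10.71 in congenic mice and 10.97, 10.32 and 11.07 in B6 mice (0.18). The genotypes overlapped in liver and in fat.

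This was the 1 feature of the 100 called in brain, where 0.226% of all features were called lower, and the 1 called in muscle, where 0.355% were. In liver 0 of 100 were called by limma (1.03% of all features in either direction), and unadjusted 12 of the 100 and 432 of all 3099 passed. In fat 0 of 100 were called (0.387% of all features), and unadjusted 0 of the 100 and 126 of all 3099 passed. The brain call held under every alternative in which the feature was tested and with each of the 24 samples left out. The muscle call was lost without congenic muscle replicate 1 or 2 or any B6 muscle sample, where the difference was -1.21 to -0.97. In muscle 3 marker lists did not overlap between the genotypes. The muscle genes lay at 12.05 to 12.15 in congenic muscle and 12.16 to 12.33 in B6 muscle. The hepatocyte genes lay at 9.77 to 9.85 in congenic muscle and 9.94 to 9.96 in B6 muscle. The pair Cst3 and Nkx2-2, which is no measure of glia in muscle, lay at 10.94 to 11.05 in congenic muscle and 11.20 to 11.34 in B6 muscle. The part of these lists in the muscle call of this feature was not tested. Averaged over tissues, it was called at -0.59 ± 0.11 (limma adjusted p = 0.00419).

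A second Napb feature, 148459717 to 148459764, 48 bases long and the 4th from the 5′ end, was called only in that average over tissues (-0.47 ± 0.12, limma adjusted p = 0.0413), where 1.10% of all features were called lower. It read 9.69, 10.07 and 10.07 in congenic brain and 11.22, 10.52 and 11.04 in B6 brain, without overlap (-0.98 ± 0.23, limma adjusted p = 0.0718). Its call over tissues was lost in 17 of the 24 fits with 1 sample left out. It remained without B6 brain replicate 2, congenic liver replicate 2 or 3, B6 liver replicate 1 or 2, congenic muscle replicate 3 or B6 muscle replicate 3. The fits that lost it gave -0.49 to -0.40. Without the 2 congenic arrays high in seminal vesicle genes it was -0.49 (limma adjusted p = 0.0737). For Napb exon 148459717 to 148459764 with well row as a block it was -0.52 (limma adjusted p = 0.151). For the genotype by tissue interaction, 0 of 100 features were called by limma (0.226% of all features). Unadjusted, 5 of the 100 and 220 of all 3099 passed.

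No exon feature of the other 6 genes was called between genotypes in any of these contrasts. The one with the smallest p in brain was Slc12a5 165038996 to 165039051, which read 6.69, 7.63 and 7.77 in congenic brain and 8.42, 8.25 and 7.86 in B6 brain. The groups did not overlap, at -0.81 ± 0.22 (limma adjusted p = 0.146 over all features). The long 3′ feature of Snph, high in brain, had a congenic minus B6 difference in brain of 0.68 ± 0.29 (limma adjusted p = 0.477), and the genotypes overlapped. The Rims4 feature 163928801 to 163928903 read 7.98, 8.62 and 7.97 in congenic brain and 7.39, 7.01 and 8.27 in B6 brain (0.63 ± 0.24, limma adjusted p = 0.427). The smallest p in brain within Dlgap4, Slc24a3 and Cdh22 belonged to differences of 0.22, 0.36 and 0.26, none past the threshold.

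**Figure D4:**
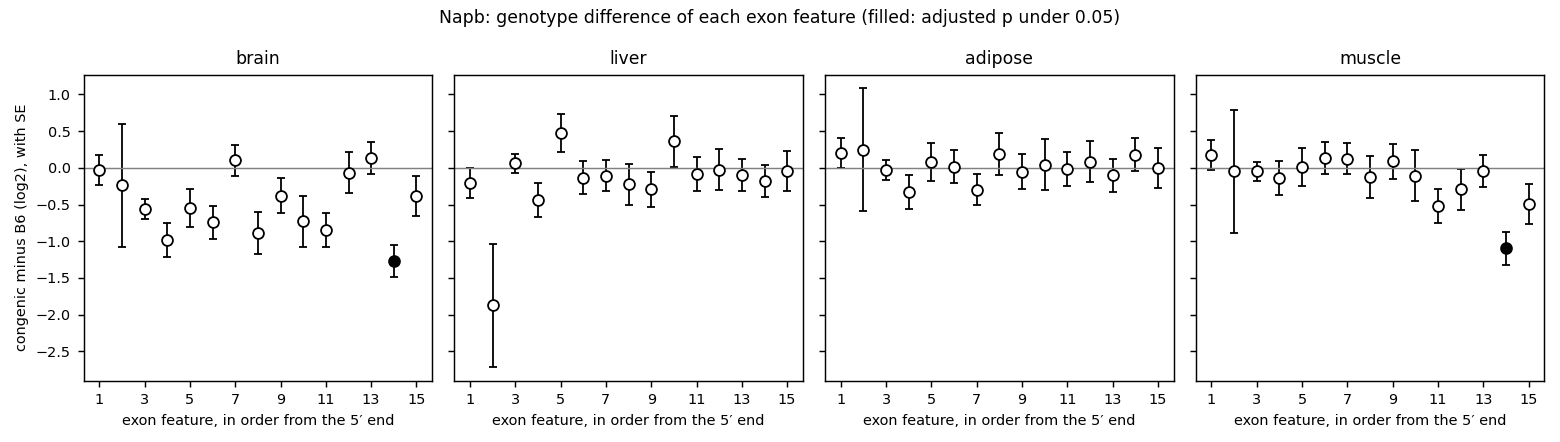
Congenic minus B6 difference in log2 intensity (vertical axis) of the 15 Napb exon features in order from the 5′ end to the 3′ end (horizontal axis), in each of the 4 tissues, with bars for the standard error of the limma fit. Brain lies below 0 at 13 of 15 features, and the 14th feature is low in brain (-1.27) and in muscle (-1.10) and near 0 in liver and fat.

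The same Napb feature also stood apart between tissues without regard to genotype. It was higher in fat than in muscle by 1.02 (limma adjusted p = 2.67e-05), while the other 14 features of the gene were below 0 in that comparison, 7 of them called lower. It belongs to the transcript X61450, whose 4 exon rows lie inside the last exon row of the longer transcript AK083184, 148447215 to 148450065, 2851 bases long. The 2 transcripts therefore read overlapping stretches of the gene, and the counts of features hold that stretch in both forms.

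The authors' value table gave the same gene probe by probe. Of the 45 Napb probes, 36 were below 0 in congenic minus B6 in brain, with a median of -0.52. In muscle 23 were below 0 with a median of -0.03, and in fat 19. Probe 3 of X61450 had the largest gap, in the row 148448549 to 148448684: 7.41, 7.29 and 7.20 in congenic brain and 11.57, 10.54 and 11.69 in B6 brain. The difference was -3.96 ± 0.36 (limma adjusted p = 6.56e-07 over all probes), and probes 1 and 2 of the same row had -0.37 and -0.53. In muscle probe 3 read 6.60, 6.51 and 6.40 in congenic mice and 9.85, 8.94 and 8.03 in B6 mice (-2.44 ± 0.36, limma adjusted p = 0.00102).

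Probe 12 of X61450, which lies in the called feature 148447336 to 148447569, read 8.98, 9.51 and 9.75 in congenic brain and 12.70, 12.38 and 12.45 in B6 brain (-3.10 ± 0.38, limma adjusted p = 4.90e-05). In muscle it read 8.44, 7.80 and 8.37 in congenic mice and 10.82, 10.56 and 9.82 in B6 mice (-2.20 ± 0.38, limma adjusted p = 0.00513). Probe 10 of the same feature read 12.14, 12.51 and 11.23 in congenic brain and 13.74, 13.01 and 13.37 in B6 brain. In muscle it read 8.83, 8.05 and 8.63 in congenic mice and 10.53, 10.35 and 10.23 in B6 mice. Probe 10 was lower without overlap in both tissues but was not called in either. Probe 11, also of this feature, had -0.16 in brain. Neighbouring probes of 1 exon thus differed from each other by more than the replicates did, which is a description of single probes. Probe 23 of AK083184, in the exon 148452931 to 148453036, read 6.26, 7.23 and 6.99 in congenic brain and 10.33, 8.56 and 10.93 in B6 brain (-3.12 ± 0.41, limma adjusted p = 1.09e-04).

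These 3 were the Napb probes called lower in brain, against 0.261% of all probes, and 2 of them were called lower in muscle, against 0.418%. Over tissues 4 were called lower, against 1.06% of all probes, with probe 10 of X61450 as the fourth (-0.98 ± 0.23, limma adjusted p = 0.0270). Without these 4, the median brain difference of the remaining 41 Napb probes was -0.43. The probe sequences were not used, so whether donor and B6 DNA differ under a probe was not tested. The replicate numbers of the value table's columns are uncertain within a group, since 17 of 24 files matched another column of their own group best. Group means and tests do not depend on them.

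**Figure D5:**
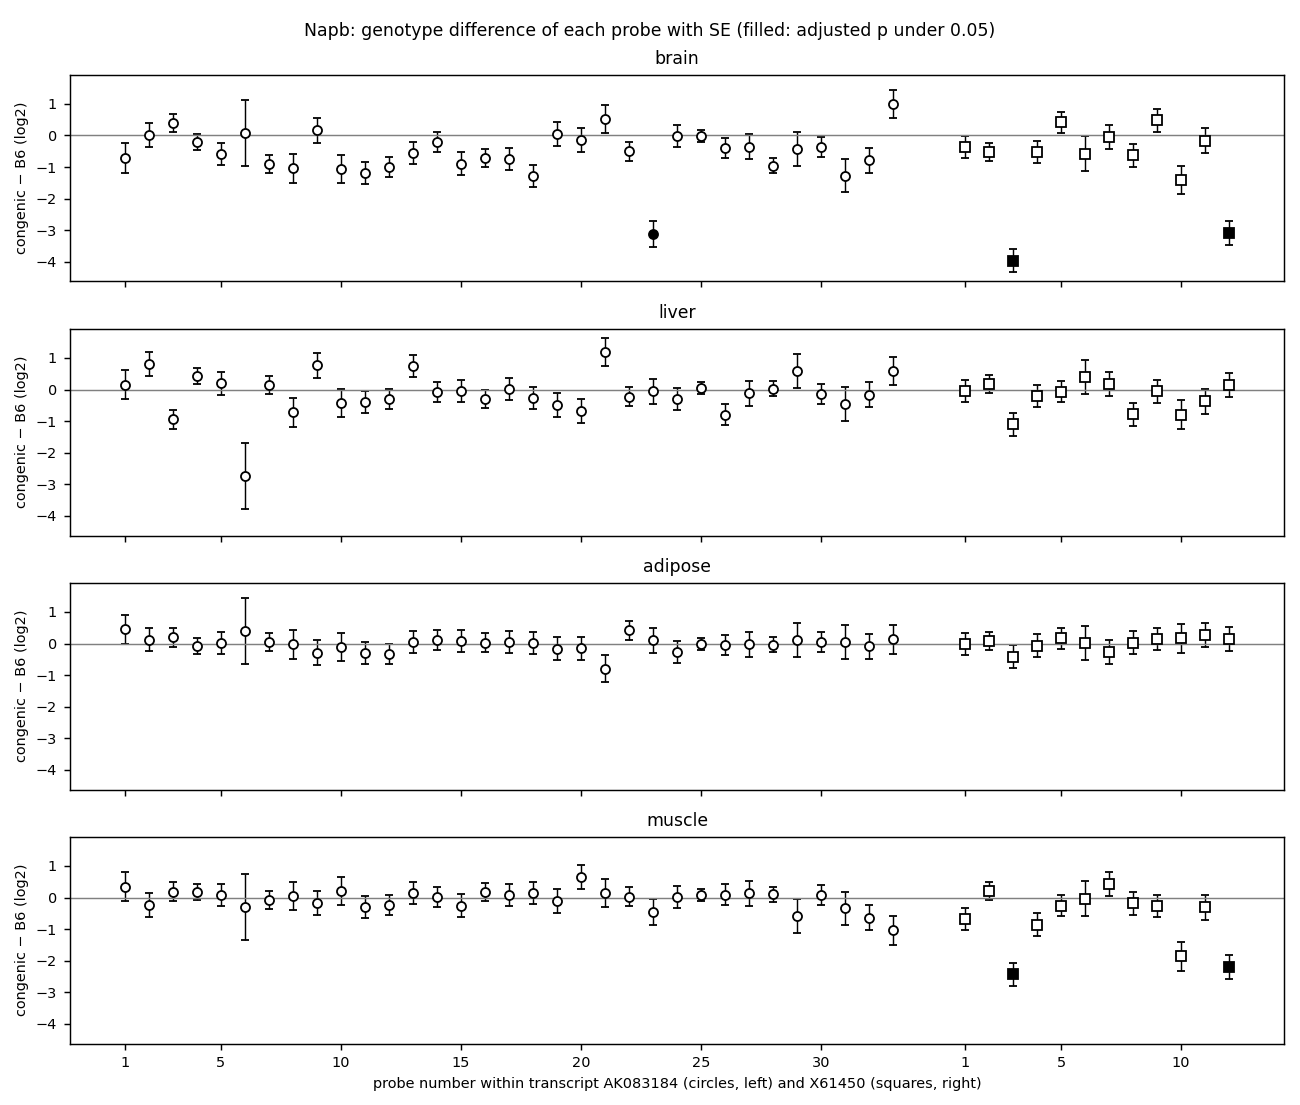
Congenic minus B6 difference in log2 value (vertical axis) of the 45 Napb probes of the authors' value table in the order of the transcripts' probes (horizontal axis), in brain, liver, fat and muscle, with bars for the standard error of the limma fit. In brain 36 probes lie below 0, with a median of -0.52 and a range from -3.96 to 0.99. The muscle median is -0.03, and probes 3 and 12 of X61450 stand far below the median in both brain and muscle.

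Probes of the other genes were called 2 times in a single tissue. Probe 58 of the Slc12a5 transcript AK122460, at 165057092 to 165057224, read 8.77, 7.97 and 7.41 in congenic brain and 6.82, 5.93 and 6.70 in B6 brain. The congenic samples were all higher (1.57 ± 0.27, limma adjusted p = 0.00354), against 0.209% of all probes called higher. Probe 10 of the Rims4 transcript AY326955, in the feature 163928801 to 163928903, read 9.26, 9.13 and 8.54 in congenic liver and 7.71, 6.37 and 7.35 in B6 liver, again without overlap (1.83 ± 0.33, limma adjusted p = 0.00790, against 0.314% of all probes).

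Exons were also set against the rest of their own gene, with limma's diffSplice, to see whether the genotype difference ran unevenly along it. Averaged over tissues, the Rims4 feature 163928801 to 163928903 departed by 0.39 (diffSplice adjusted p = 0.0407), the 1 departure among the 7 genes, against 1.60% of all features. That call was lost in 15 of 24 fits with 1 sample left out, where it was 0.32 to 0.41, and in 4 of its alternatives. It remained without congenic brain replicate 1, B6 brain replicate 3, congenic liver replicate 1 or 3, B6 liver replicate 2, congenic adipose replicate 2, B6 adipose replicate 1, congenic muscle replicate 3 or B6 muscle replicate 1. In brain 0 of 100 features were called by diffSplice (0.358% of all features). The nearest was Slc12a5 165038996 to 165039051 (-0.77, diffSplice adjusted p = 0.0634).

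Liver held 4 departures, against 3.03% of all features, and they were of different kinds. The Rims4 feature read 8.88, 9.06 and 9.06 in congenic liver and 8.08, 8.26 and 8.15 in B6 liver, a departure of 0.92 (diffSplice adjusted p = 0.00582). In Slc24a3 the feature 145369812 to 145369925 read 8.82, 9.06 and 8.70 in congenic liver and 7.93, 8.04 and 8.36 in B6 liver, a departure of 0.83 (diffSplice adjusted p = 0.00434). Both were without overlap and held with each sample left out, and both were lost with median scaling (0.53 with diffSplice adjusted p = 0.102, and 0.42 with diffSplice adjusted p = 0.244).

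The mean of Cst3 and Nkx2-2, listed as glial markers, was 10.07 to 10.36 in congenic liver and 10.55 to 11.11 in B6 liver. Its part in these departures was not tested. Only 1 of these 2 genes was called higher in brain than in liver, and the pair averaged 10.97 to 11.16 in fat. It is therefore no measure of glia outside brain. The other 2 departures changed with single arrays. In Napb the feature 148465233 to 148465313 read 7.29, 7.45 and 7.05 in congenic liver and 12.84, 7.64 and 6.91 in B6 liver. Its departure of -1.80 (diffSplice adjusted p = 3.11e-04) became 0.06 (diffSplice adjusted p = 0.977) without B6 liver replicate 1. In Slc12a5 the feature 165050646 to 165050745 read 12.38, 10.27 and 10.63 in congenic liver and 10.41, 10.07 and 10.22 in B6 liver. Its departure of 0.75 (diffSplice adjusted p = 0.0195) became 0.11 (diffSplice adjusted p = 0.943) without congenic liver replicate 1, and the call was also lost without B6 liver replicate 2 or 3 and with well row as a block (0.25, diffSplice adjusted p = 0.868).

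Over the 24 samples the genes fell into a brain-led trio and the rest. Pearson's r was 0.87 between Napb and Slc12a5, 0.77 between Snph and Slc12a5 and 0.75 between Napb and Snph. The lowest was -0.41, between Rims4 and Dlgap4. All 24 points share the arrays and their scaling, and tissue differences make up much of these values. Among all genes on the array, the one most like Napb was the transcript BC057348 (r = 0.97), followed by Ndrg3 (r = 0.95). The same pair led for Slc12a5, at 0.89 and 0.88. Snph was most like Gdap1l1 (r = 0.82), Dlgap4 like Spata25 (r = 0.78), Cdh22 like Cfap61 (r = 0.73), Slc24a3 like Flrt3 (r = 0.63) and Rims4 like Pkig (r = 0.62).

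A set of 3 lists of related genes gives the setting for these 7. Of 33 other neuronal and synaptic genes, 18 were measured. In congenic minus B6 brain, 0 of the 18 were called higher and 1 lower, the RNA Snhg11 (-0.62 ± 0.14, limma adjusted p = 0.0237). Of all genes, 0.880% were called lower there. None of the 18 was called in the other 4 genotype contrasts or the interaction. Brain was called above liver in 8 of the 18 and below in 2, against 17.3% and 17.0% of all genes. The median brain minus liver difference of the 18 was 0.13. Nnat, which encodes the proteolipid neuronatin of developing neurons, differed by 1.63, Snhg11 by 1.51 and Ndrg3 by 0.93. Cbln4, a cerebellin-type synapse organiser, was lower in brain than in liver (-0.21), as was the somatostatin receptor gene Sstr4 (-0.19). Against the mean of the other tissues, however, Cbln4 was higher in brain (0.23 ± 0.06, limma adjusted p = 0.00282). Sstr4 was lower in that comparison too (-0.16 ± 0.06, limma adjusted p = 0.0257).

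Of 21 genes of vesicle traffic 14 were measured, and 0 were called in any genotype contrast. Brain was called above liver in 5 and below in 1 of them, against 17.3% and 17.0% of all genes. Dynlrb1, a light chain of the motor dynein, differed by 0.78 ± 0.09 and Rab5if by -1.14 ± 0.14. Of 23 carriers, channels and adhesion genes 12 were measured. Serinc3, which encodes a membrane protein with many spans, was lower in congenic fat (-0.93 ± 0.15, limma adjusted p = 0.00172) and congenic muscle (-0.77 ± 0.15, limma adjusted p = 0.00850), and its genotype difference varied with tissue (F = 12.35, limma adjusted p = 0.0330). No other gene of that list was called between genotypes. Of all genes, 1.47% were called in fat, 0.587% in muscle and 0.293% for the interaction. Brain was called above liver in 3 of the 12 and below in 2, against 17.3% and 17.0% of all genes.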

How the data were processed

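RNA was measured on 24 one-colour arrays with biotin-labelled cRNA, per the labels' protocols. Per the file headers, each deposited array file gives the mean intensity of an exon's probes, on a linear scale and with no mismatch signal subtracted. The authors' value table holds intensity per probe, with column medians from 438.6 to 441.3. The submitters' processing notes name RMA, without version or settings. The number of arrays limits the precision. Replicates of a group correlated at 0.920 to 0.989 in raw log2 intensity. The design text states biological replicates, so p-values measure the spread between these samples.

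Background was corrected with normexp (offset 50). Exon intensities were then quantile normalized, taken to log2, averaged over identical rows and summarised per gene by median polish. The platform annotation named 301 genes, and 40 transcripts kept their accession. limma 3.58.1 in R 4.3.3 fitted a mean for each of the 8 groups, with Benjamini-Hochberg adjustment over all genes, features or probes and a threshold of 0.05. diffSplice tested exons against their gene. The fit was tested on simulated data. Python 3.11.15 with matplotlib 3.10.9 made the figures.

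The members, gene lists and tests were chosen with earlier results of these data known. All 7 genes are named. The genes most like each of them were taken by Pearson's r over the 24 samples, and of each list those called with the largest differences. Alternatives covered background correction, scaling, summary, dim features, the value table, blocks, the samples fitted and each sample left out.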

Additional observations from a re-analysis of the deposited data

How the results depend on the processing

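Of 2745 values of single genes and exon features under the alternatives and with samples left out, 2482 kept their sign and side of the threshold, 138 that were not called changed sign and stayed uncalled, 78 kept the sign and lost the call, 45 gained a call and 2 changed sign with a call on one side. The last 2 were Napb adipose minus muscle, 0.34 with dim features left out, and the Napb liver departure, 0.0614 without B6 liver replicate 1 (-2.94 to 0.0614 with any 1 sample left out). The number of the 7 genes called in brain, 1, became 0 without background correction, with median scaling, with the mean of exon features, with dim features left out and with brain samples alone. Adipose minus muscle, 1, became 3 without background correction, 5 with the mean of features, 4 with the value table, 2 with dim features left out and 4 with the compared tissues alone. Brain minus liver, 4, became 2 with median scaling, 3 with dim features left out and 6 with the mean of features. Brain minus the other tissues, 4, became 6 with the mean of features, 5 with the value table, 3 with median scaling and 2 with dim features left out or well row as a block. Exon features called in brain, 1, became 2 without background correction, 4 among value table probes and 3 with well row as a block. Those in liver, 0, became 2 with median scaling and 1 among probes. Those in muscle, 1, became 2 among probes. Those over tissues, 2, became 4 among probes and 1 without congenic adipose replicate 1 and congenic muscle replicate 3, the 2 arrays richest in seminal vesicle genes. Brain minus liver features, 44, became 138 among probes. The departure over tissues, 1, became 0 without background correction, with median scaling or without those 2 arrays, and 2 with well row as a block. With 1 sample left out, counts ran from 0 to 1 for genes in brain, 1 to 4 for adipose minus muscle, 4 to 5 for brain minus liver and 3 to 4 for brain minus the others. Those of features ran from 1 to 5 in brain, 0 to 2 in liver, 0 to 1 in muscle, 1 to 3 over tissues, 40 to 45 for brain minus liver and 0 to 3 for departures. Napb, congenic minus B6 in brain, was -0.36 without background correction (limma adjusted p = 0.355), -0.47 with median scaling (0.155), -0.49 with the mean of features (0.209), -0.67 without dim features (0.162) and -0.63 in brain samples alone (0.352). The causes were not tested. Replicate numbers did not pair the samples (r of same-numbered samples -0.45 to 0.51, 5 of 12 best matches with the same number), and the fit with a replicate block called 1 gene in brain, Napb (limma adjusted p = 0.0395), and changed no call. The well row, seminal vesicle, log2 quantile and longer median polish settings were chosen after seeing the data. No scaling moved the median of all genes by over 0.1.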
